A study of Arabidopsis thaliana with 12 samples.

Results

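The nuclear photosystem and antenna genes of Arabidopsis thaliana were taken by locus identifier, as listed for their known place in the photosynthetic machinery. They were 45 of the 33607 genes in the deposited tables: 13 photosystem I subunits, 6 LHCA genes (antenna of photosystem I), 14 LHCB genes (antenna of photosystem II), 11 photosystem II subunits, and PETC, the Rieske iron-sulphur protein of the cytochrome b6f complex. All 45 were found in both tables.

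Photosystem II oxidises water, the cytochrome b6f complex passes its electrons to plastocyanin, and photosystem I passes them from plastocyanin to ferredoxin. Photosystem I is rich in iron, since its electron acceptors are iron-sulphur clusters, while the chlorophyll proteins of the antennae carry none of them. The core proteins that bind the reaction centres are encoded in the chloroplast, and the nuclear genes described here encode the peripheral subunits and the antennae.

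RNA sequencing of polyadenylated RNA was done on whole rosettes and on roots of wild-type Columbia-0 plants, with no mutant or transgenic line among the groups used. All plants first grew for 10 days on complete ES medium with 1.5% sucrose, 25 seedlings on a plate, and were lit without a dark period at 50 µmol m-2 s-1. Fe-deficient plants were then moved to iron-free ES medium containing ferrozine at 100 µM, which chelates ferrous iron, and control plants to fresh complete medium, and both were sampled 72 h later. The groups were Fe-deficient rosettes, control rosettes, Fe-deficient roots and control roots, with 3 libraries in each. Iron withdrawal and ferrozine were always given together, so the effects of each cannot be told apart. The labels do not say whether the 3 replicates came from separate cultures, so p-values measure only the spread between these libraries.

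Levels are given in RPKM, read density per length of transcript and per library size. A gene was called changed at a Benjamini-Hochberg adjusted p under 0.05 in limma, fitted to log2(RPKM + 0.5) over all genes averaging 1 RPKM or more in the organ. That filter kept 19006 genes in rosettes and 19932 in roots. Log2 fold changes are Fe-deficient minus control. In whole organs, fewer cells of a type and less RNA per cell cannot be told apart.

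Libraries of 1 group correlated at r = 0.9771 to 0.988 in rosettes and 0.9791 to 0.9862 in roots, across genes. The deposited values had been equalised across the 6 libraries of each organ, so that 18 of the 45 members hold an identical value in at least 2 rosette libraries, and this narrows their apparent spread. The iron-deficiency genes bHLH38 and BHLH100 were called higher and the ferritin gene FER1 lower in both organs. Of 9 shoot markers, all were tested in rosettes, whereas in roots 6 never reached 0.1 RPKM and the highest value of any was 1.15 RPKM. The 7 root markers summed to between 3110 and 3200 RPKM in Fe-deficient roots and 3120 to 3150 RPKM in control roots, and none was called changed there.

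In rosettes the members are among the most abundant transcripts, with 38 of them among the 100 highest genes. Together they made up 8.5 to 9.77% of the summed RPKM of a library in Fe-deficient rosettes, against 9.9 to 10.7% in control rosettes. In Fe-deficient rosettes 4 of the 45 were called lower and none higher. Over all tested genes 1.28% were called lower, 0.679% higher and 1.96% in either direction. At an unadjusted p under 0.05, 19 members were lower and 1 higher, against 9.34% of all tested genes lower. The 4 called at the adjusted threshold were PSAN (AT5G64040), PSAF (AT1G31330) and PSAD2 (AT1G03130) of photosystem I and PSBTN (AT3G21055) of photosystem II. No antenna gene was called in rosettes. The log2 fold change was below 0 for 39 of the 45 members, against 49.7% of all tested genes, and the median over the 45 was -0.20, against 0.001 over all genes.

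**Figure D1:**
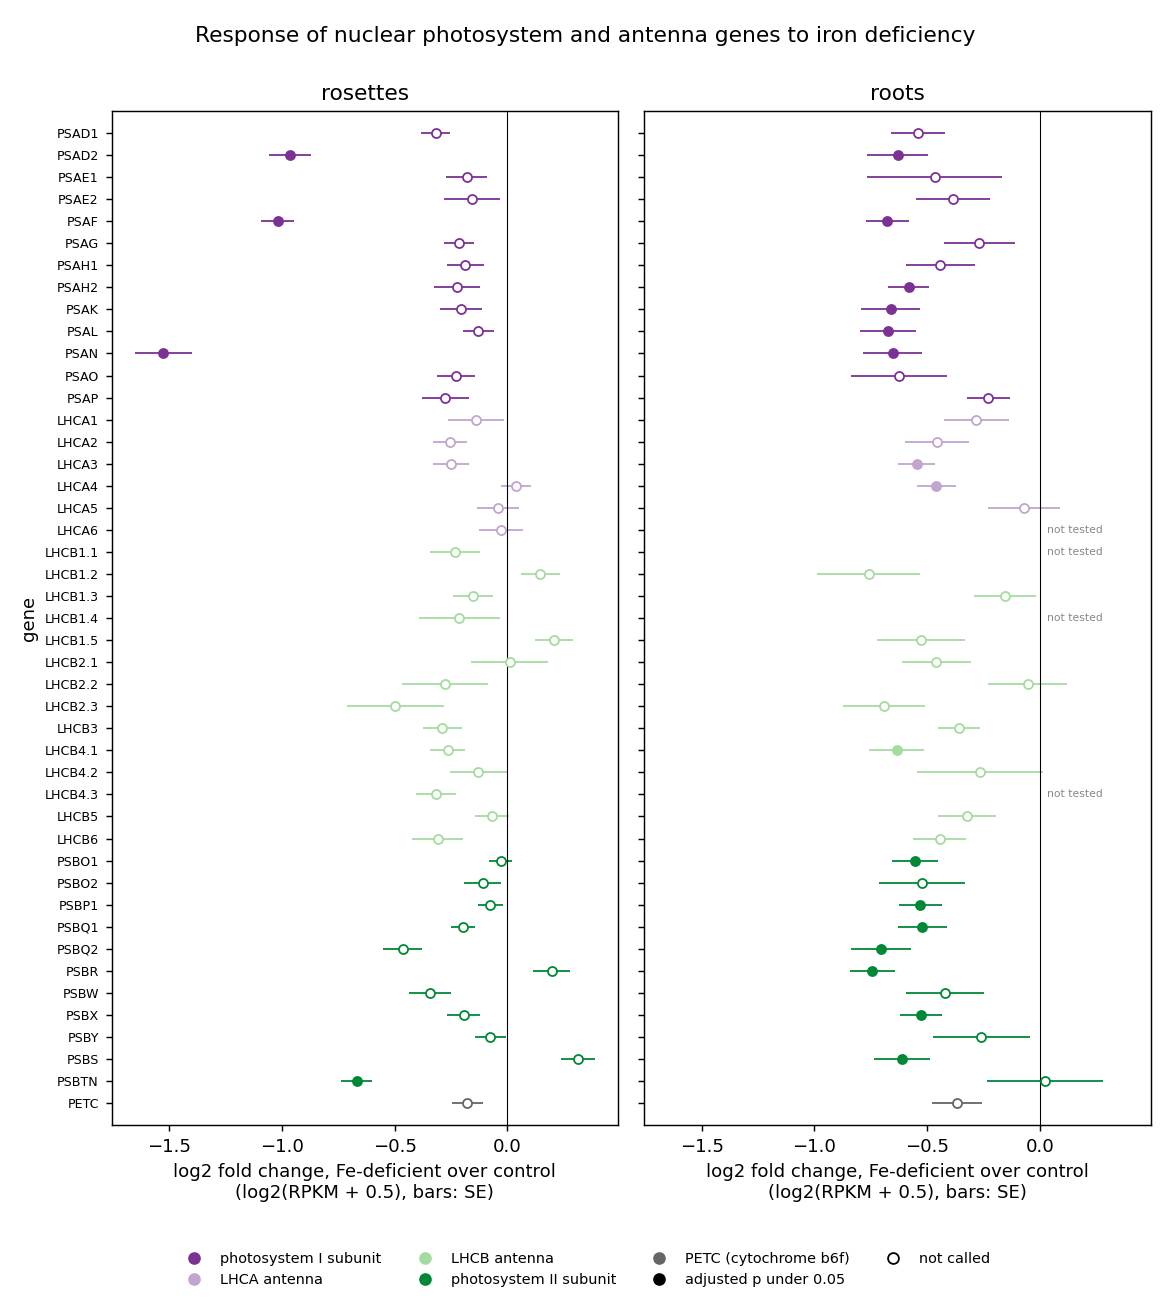
Log2 fold change of each member, Fe-deficient over control, on the log2(RPKM + 0.5) scale, in rosettes (left panel) and roots (right panel). Bars are standard errors from limma with 3 libraries per group, colours give the class, and filled points have an adjusted p under 0.05. In rosettes PSAN, PSAF, PSAD2 and PSBTN stand to the left of all others, whereas in roots 40 of the 41 tested members lie below 0.

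Among the photosystem I subunits, PSAN changed most. PSAN is the small subunit on the lumenal side of the complex, where plastocyanin binds. It was measured at 703.3, 529.8 and 507.9 RPKM in Fe-deficient rosettes, against 1669.9, 1608.8 and 1690.4 RPKM in control rosettes. The groups lay far apart, with the highest Fe-deficient library well below the lowest control library. The change was 2.88-fold lower (log2 fold change -1.53, SE 0.127, limma adjusted p = 0.00308).

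PSAF, which carries the plastocyanin docking site on the same side, had 1237.0, 1095.0 and 1050.4 RPKM in Fe-deficient rosettes, against 2264.0, 2309.9 and 2264.0 RPKM in control rosettes. The groups did not overlap, and the change was 2.03-fold lower (log2 fold change -1.02, SE 0.0731, limma adjusted p = 0.00151). PSAF holds an identical value in 2 of its control libraries, which narrows its apparent spread. PSAD2 is 1 of 2 genes for PSAD, the stromal subunit at which ferredoxin docks. It stood at 470.8, 393.3 and 395.3 RPKM in Fe-deficient rosettes, against 891.8, 785.1 and 781.2 RPKM in control rosettes, again without overlap (log2 fold change -0.97, SE 0.0931, limma adjusted p = 0.0057). PSAN and PSAD2 each overlap a neighbouring gene, and the use of strand in counting is not given in the sources used here. The neighbours did not pass the test: AT5G64030 beside PSAN averaged 35.3 RPKM in Fe-deficient rosettes and 30.8 RPKM in control rosettes (limma adjusted p = 0.215), and AT1G03140 beside PSAD2 averaged 32.9 RPKM in Fe-deficient rosettes and 37.6 RPKM in control rosettes (limma adjusted p = 0.251). Its paralog PSAD1 had 1029.3, 967.7 and 933.1 RPKM in Fe-deficient rosettes and 1302.5, 1186.8 and 1167.2 RPKM in control rosettes. PSAD1 also did not overlap between the groups, but its log2 fold change of -0.32 (95% interval -0.48 to -0.16) did not pass the test (limma adjusted p = 0.0862).

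The other 9 photosystem I subunits had log2 fold changes between -0.28 and -0.13, and none passed the test. The highest of the class, PSAL, which with PSAH and PSAO lies on the side where the mobile antenna docks, had 1558.3, 1635.3 and 1474.0 RPKM in Fe-deficient rosettes and 1789.1, 1599.2 and 1719.5 RPKM in control rosettes. These values overlap (log2 fold change -0.13, 95% interval -0.30 to 0.04). PSAE1 and PSAE2, which encode the other stromal subunit at the ferredoxin site, had log2 fold changes of -0.18 (limma adjusted p = 0.393) and -0.16 (limma adjusted p = 0.602). PSAP, also known as CURT1B and a protein of thylakoid membrane curvature, had -0.28 (limma adjusted p = 0.275). All 13 photosystem I subunits had a log2 fold change below 0, and their median was -0.22. In 8 of the 13 every Fe-deficient library was below every control library, which held for 11.4% of all tested genes.

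**Figure D2:**
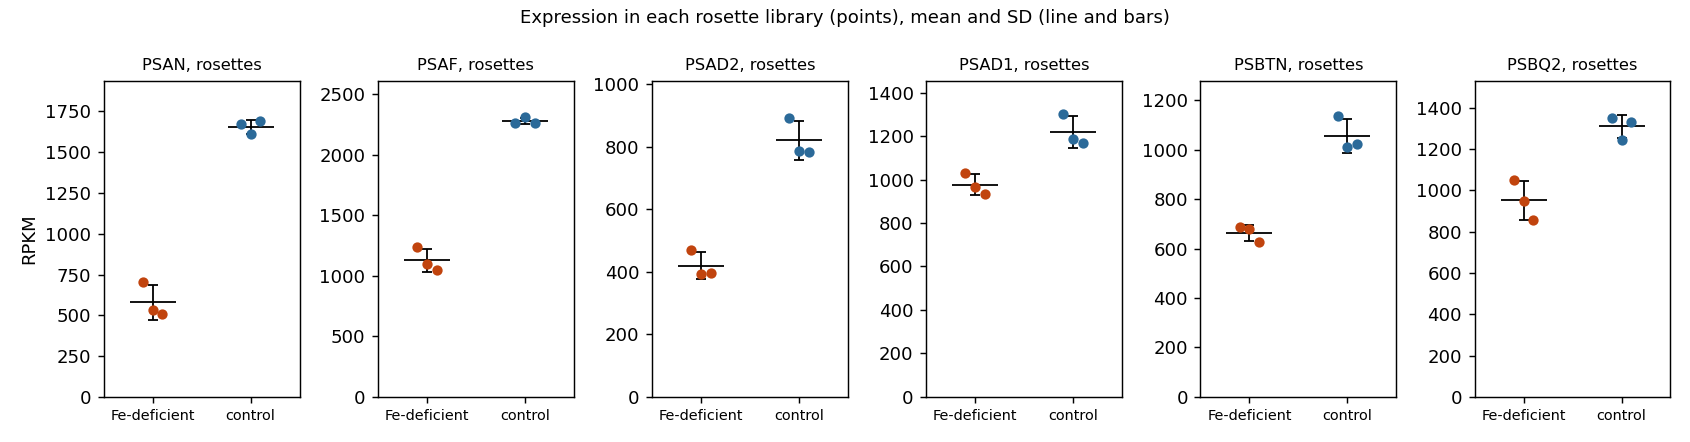
RPKM of the 4 members called in rosettes (PSAN, PSAF, PSAD2 and PSBTN) and of the paralog PSAD1 and the near-miss PSBQ2, with Fe-deficient rosettes left of control rosettes. Points are single libraries, and lines and bars give the mean and SD of 3 libraries; no panel shows overlap between the groups.

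The DNA just upstream of these genes is shown because PSAN, PSAF and PSBTN were all called lower and PSAD1 did not pass. The stretches come from RefSeq (TAIR10.1), run 5′ to 3′ on the gene's strand, end at the base before the annotated gene start and stop where another gene's exon begins, with at most 150 bases printed. Capitals mark the light-regulatory motifs G-box (CACGTG) and I-box (GATAAG) on either strand. For PSAD2 a neighbour's exon reaches the gene start, so no stretch is printed.
PSAN, chr5:25629709-25629831, minus strand: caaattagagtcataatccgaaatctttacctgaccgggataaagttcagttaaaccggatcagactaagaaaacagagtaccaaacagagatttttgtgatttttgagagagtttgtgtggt
PSAF, chr1:11216142-11216291, minus strand: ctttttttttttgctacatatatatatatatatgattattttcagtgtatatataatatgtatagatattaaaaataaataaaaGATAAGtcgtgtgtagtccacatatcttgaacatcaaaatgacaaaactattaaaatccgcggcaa
PSBTN, chr3:7377227-7377376, minus strand: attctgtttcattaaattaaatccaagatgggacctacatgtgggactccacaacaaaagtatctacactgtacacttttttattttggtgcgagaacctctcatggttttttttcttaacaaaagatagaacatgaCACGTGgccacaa
PSAD1, chr4:1230165-1230314, minus strand: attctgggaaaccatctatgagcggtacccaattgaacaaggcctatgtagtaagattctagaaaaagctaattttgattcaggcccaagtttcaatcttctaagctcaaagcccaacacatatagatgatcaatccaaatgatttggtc

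The printed stretches hold neither motif in common: PSAF has an I-box at position -66 and PSBTN a G-box at position -13, counted from the gene start, and PSAN holds neither. Over the 250 bases before the gene start, counting both strands, the G-box occurs in 9 of the 45 members (20.0%), against 6.49% of 27443 promoters. The I-box occurs in 10 members (22.2%), against 12.3% of promoters, and the CCAATC motif in 12 (26.7%), against 10.2%. These matches describe letters and not binding, and PSAN and PSAD2 have no match to any of the 3 motifs in that window. PSAD1, which did not pass, has an I-box at position -181, so that PSAF and PSAD1 share this motif in the window.

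The 11 photosystem II subunits ranged more widely in rosettes, with log2 fold changes from -0.67 to 0.31 and a median of -0.11. PSBTN, a small subunit of photosystem II, had 685.9, 679.5 and 626.0 RPKM in Fe-deficient rosettes, against 1136.4, 1009.9 and 1023.9 RPKM in control rosettes. The groups were well apart, and PSBTN was the only member of its class that was called (log2 fold change -0.67, SE 0.0676, limma adjusted p = 0.00718). The call was lost when all 12 libraries were fitted together (adjusted p = 0.125).

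PSBQ2, 1 of 2 genes for the PSBQ protein of the oxygen-evolving complex, had 1048.8, 947.7 and 855.8 RPKM in Fe-deficient rosettes and 1349.9, 1245.8 and 1331.1 RPKM in control rosettes. Its groups did not overlap, but it missed the threshold (log2 fold change -0.47, 95% interval -0.67 to -0.26, limma adjusted p = 0.0602). The other genes of that complex moved less, with log2 fold changes of -0.03 for PSBO1, -0.11 for PSBO2, -0.08 for PSBP1 and -0.20 for PSBQ1, none of them called. PSBW, a small subunit that stabilises the complex with its antenna, had 1238.2, 1032.1 and 1040.2 RPKM in Fe-deficient rosettes and 1461.4, 1442.8 and 1286.2 RPKM in control rosettes, without overlap (log2 fold change -0.34, limma adjusted p = 0.161). The small subunits PSBX and PSBY had -0.19 and -0.08, neither called.

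PSBS and PSBR stood on the other side of 0. PSBS, the sensor of lumen acidity that switches on dissipation of excess light, had 951.1, 823.3 and 888.2 RPKM in Fe-deficient rosettes, against 740.7, 736.5 and 663.4 RPKM in control rosettes. It was the only member whose Fe-deficient libraries were all higher, as were 10.0% of all tested genes, but it did not pass (log2 fold change 0.31, 95% interval 0.13 to 0.50, limma adjusted p = 0.122). PSBR, a subunit that helps hold the oxygen-evolving complex in place, had 3559.6, 3849.6 and 3300.5 RPKM in Fe-deficient rosettes and 3300.5, 2990.4 and 3051.0 RPKM in control rosettes. The groups met at 1 shared value, and the log2 fold change of 0.20 did not pass (limma adjusted p = 0.322).

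The antennae were the largest part of the members' RNA in rosettes, and none of the 20 antenna genes was called there. LHCB1.3, a gene of the major trimeric antenna and the most abundant member, had 6386.0 RPKM in each of the 3 Fe-deficient libraries, against 7480.0, 6386.0 and 7480.0 RPKM in control libraries. Identical values at this rank come with the equalised distributions, so the spread of LHCB1.3 was not measured freely. The 14 LHCB genes had a median log2 fold change of -0.22, from -0.50 for LHCB2.3 (limma adjusted p = 0.331) to 0.21 for LHCB1.5 (limma adjusted p = 0.313). In 4 of the 14 every Fe-deficient library was below every control library, which held for 11.4% of all tested genes. These were LHCB3, LHCB4.1, LHCB4.3 and LHCB6, with log2 fold changes from -0.32 to -0.27, and the other LHCB genes overlapped between the groups. LHCB3 is a subunit of the trimeric antenna, and LHCB4 and LHCB6 encode the minor antenna proteins CP29 and CP24 that link it to the core. LHCB4.3 was the least abundant member in rosettes, with 18.0, 15.5 and 19.3 RPKM in Fe-deficient and 21.0, 23.1 and 21.9 RPKM in control rosettes, and LHCB5, which encodes CP26, had a log2 fold change of -0.07.

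LHCB2.3 had 515.6, 329.9 and 329.3 RPKM in Fe-deficient rosettes and 660.0, 508.6 and 470.0 RPKM in control rosettes, with overlap. LHCB1.5 had 3440.6, 3223.3 and 2866.1 RPKM in Fe-deficient rosettes and 2866.1, 2652.3 and 2722.1 RPKM in control rosettes, also touching. Reads of this family can be shared between copies, since 10.6 to 22.3% of the 50-base words of each LHCB1 transcript occur in another gene of the tables, most of them in another LHCB1 copy. LHCB2.1 shares 22.7% of its words with LHCB2.2, and LHCB2.2 shares 28.2% with LHCB2.1. LHCB2.3 shares 38.6% with AT3G27700, a neighbour it overlaps, and not with the LHCB2 copies. The 4 members called in rosettes share no such word. How the authors assigned such reads is not given in the sources used here.

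The closeness of the LHCB1 copies can be read from bases 301 to 390 of the coding sequence (RefSeq, TAIR10.1, chromosome 1), where capitals mark bases that differ from LHCB1.3. Over the whole 804 bases, LHCB1.1 differs from LHCB1.3 at 31 positions and LHCB1.2 at 29.
LHCB1.3: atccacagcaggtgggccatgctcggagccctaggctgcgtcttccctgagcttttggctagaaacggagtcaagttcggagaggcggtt
LHCB1.1: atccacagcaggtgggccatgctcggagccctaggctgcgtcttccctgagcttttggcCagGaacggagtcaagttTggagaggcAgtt
LHCB1.2: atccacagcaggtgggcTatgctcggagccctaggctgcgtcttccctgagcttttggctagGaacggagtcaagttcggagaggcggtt

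The LHCA genes had a median log2 fold change of -0.09 in rosettes, between -0.26 for LHCA2 and 0.04 for LHCA4. LHCA2 had 1656.3, 1579.0 and 1421.5 RPKM in Fe-deficient rosettes and 1900.6, 1749.6 and 1900.6 RPKM in control rosettes, without overlap but not called (limma adjusted p = 0.188). LHCA4 had 3069.5, 3069.5 and 2840.0 RPKM in Fe-deficient rosettes and 3069.5, 2840.0 and 2840.0 RPKM in control rosettes. LHCA4 thus holds only 2 distinct values over the 6 rosette libraries, so its spread was not measured freely, and its log2 fold change of 0.04 is given as a value only. LHCA5 and LHCA6, which help join photosystem I to the NDH complex, averaged 108.2 and 83.3 RPKM in Fe-deficient rosettes and 111.4 and 85.1 RPKM in control rosettes, well below LHCA1 to LHCA4, with log2 fold changes of -0.04 and -0.03. PETC had 831.8, 726.5 and 732.1 RPKM in Fe-deficient rosettes and 858.9, 897.5 and 831.8 RPKM in control rosettes (log2 fold change -0.18, limma adjusted p = 0.287).

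Summing the classes within each rosette library put photosystem I against the others. The photosystem I subunits summed to 13765.8, 12578.7 and 11655.8 RPKM in Fe-deficient rosettes, against 17776.1, 16413.3 and 16616.1 RPKM in control rosettes. The groups did not overlap, and the ratio of means was 0.748. The other classes overlapped between the groups, with ratios of means of 0.937 for photosystem II subunits, 0.923 for LHCA and 0.925 for LHCB. Fe-deficient replicate 3 had the lowest sum of each of these 4 classes.

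The ratio of photosystem I to photosystem II sums was 0.874, 0.837 and 0.815 in Fe-deficient rosettes, against 1.08, 1.03 and 1.06 in control rosettes. Without PSAN, PSAF and PSAD2 the gap shrank, to 0.721, 0.703 and 0.678 in Fe-deficient rosettes and 0.784, 0.737 and 0.756 in control rosettes, still without overlap. The photosystem II sum kept PSBR, its most abundant gene, at a mean of 3570 RPKM in Fe-deficient rosettes and 3114 RPKM in control rosettes. The remaining gap therefore does not describe the other photosystem I subunits alone, and the part of PSBR in it was not tested. The LHCA sum relative to photosystem I was 0.642, 0.656 and 0.637 in Fe-deficient rosettes and 0.517, 0.525 and 0.526 in control rosettes. That photosystem I sum includes PSAN, PSAF and PSAD2, and their part in this ratio was not tested. The ratio between the 2 antennae hardly differed, at 0.298 ± 0.00237 for LHCA over LHCB in Fe-deficient rosettes and 0.299 ± 0.00875 in control rosettes (SD, n = 3 each).

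**Figure D3:**
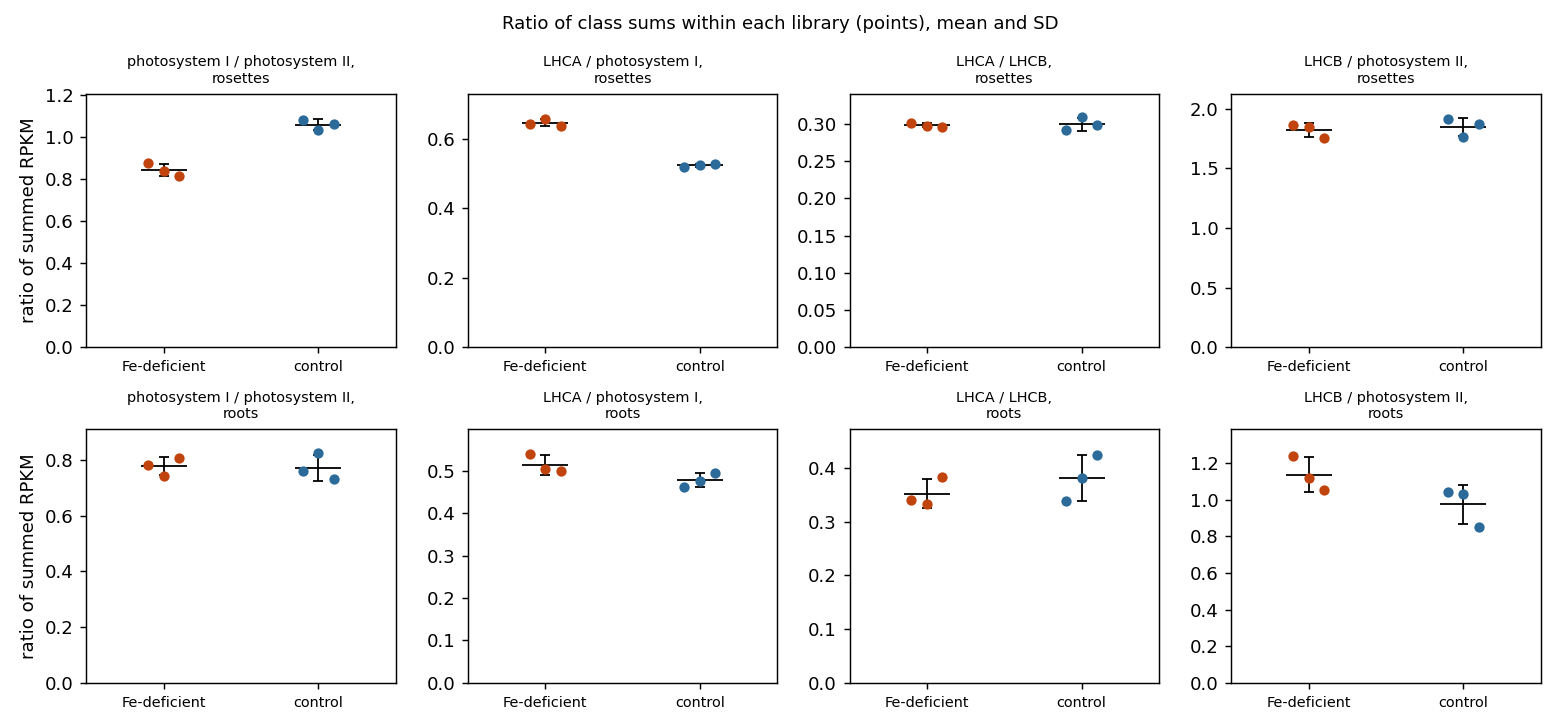
Ratios of the summed RPKM of member classes within each library, in rosettes (top) and roots (bottom), with Fe-deficient left of control. Points are libraries, and lines and bars give the mean and SD of 3; the photosystem I to photosystem II ratio averaged 0.842 in Fe-deficient rosettes and 1.06 in control rosettes, while in roots it averaged 0.778 in Fe-deficient and 0.772 in control libraries.

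Of 7 pairs of paralogs compared, 3 had ratios that did not overlap between the rosette groups, and none passed a test. The log2 ratio of PSAD1 to PSAD2 was 1.128, 1.298 and 1.238 in Fe-deficient rosettes, against 0.546, 0.596 and 0.579 in control rosettes, a difference of 0.65. The ratio of PSBQ1 to PSBQ2 differed by 0.27 and that of LHCB2.1 to LHCB2.2 by 0.29, each also without overlap. With 3 libraries against 3 the two-sided exact permutation p was 0.1 for each, the smallest this design allows, and 0.233 after adjustment over the 7 pairs. LHCB2.1 and LHCB2.2 share 50-base words with each other, while PSAD1 and PSAD2 share none. The other 4 pairs, of PSAE, PSAH, PSBO and LHCB4, overlapped in rosettes, and in roots all 7 pairs overlapped.

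In roots the members were expressed at a low level, with a median of 0.938% of the level in control rosettes, from 0.0131% for LHCB1.4 to 5.24% for LHCB4.3. The tables of the organs were normalised separately, so these percentages are approximate. Members made up 0.0638 to 0.0776% of the summed RPKM in Fe-deficient roots, against 0.0972 to 0.0987% in control roots. LHCA6, LHCB1.1, LHCB1.4 and LHCB4.3 were under the filter and were not tested. Of the 41 tested, 16 were called lower and none higher. Over all tested genes 2.35% were called lower, 3.52% higher and 5.87% in either direction. At an unadjusted p under 0.05, 30 members were lower and none higher, against 11.3% of all tested genes lower. The log2 fold change was below 0 for 40 of the 41, against 54.4% of all genes, and in 29 every Fe-deficient library was below every control library, against 14.1% of all genes. The count of calls was fragile. Leaving out 1 library at a time left 1 to 7 members called, with 1 called without control roots replicate 2, 4 without control roots replicate 3 or Fe-deficient roots replicate 2, 6 without control roots replicate 1 or Fe-deficient roots replicate 3, and 7 without Fe-deficient roots replicate 1. Only 1 was called when genes of any level entered the test.

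Root photosystem I subunits had a median log2 fold change of -0.58, and 6 of the 13 were called. PSAF had 14.4, 15.4 and 14.2 RPKM in Fe-deficient roots, against 26.1, 24.6 and 20.8 RPKM in control roots (log2 fold change -0.68, SE 0.0964, limma adjusted p = 0.00984). PSAN had 8.9, 11.9 and 11.8 RPKM in Fe-deficient roots, against 16.8, 15.8 and 19.2 RPKM in control roots (log2 fold change -0.65, limma adjusted p = 0.036). In neither did the groups overlap. PSAD2 had 2.38, 2.08 and 1.77 RPKM in Fe-deficient roots, against 3.53, 3.17 and 3.74 RPKM in control roots (log2 fold change -0.63, limma adjusted p = 0.047). In roots the overlapping neighbours stood above both genes, AT5G64030 beside PSAN at 53.1 RPKM in Fe-deficient and 47.8 RPKM in control roots, and AT1G03140 beside PSAD2 at 41.3 RPKM in Fe-deficient and 41.6 RPKM in control roots. Neither neighbour was called (limma adjusted p = 0.207 and 0.956). In the word comparison described for the LHCB copies, PSAN and PSAD2 shared no word with another gene of the tables. Without strand, only reads from the stretch where a gene and its neighbour overlap could be mixed, and their part was not tested. PSAL had 8.0, 8.4 and 6.2 RPKM in Fe-deficient roots, against 12.5, 12.5 and 11.6 RPKM in control roots. PSAK, a subunit beside the LHCA belt, had 10.9, 8.2 and 10.2 RPKM in Fe-deficient roots, against 16.2, 17.0 and 13.7 RPKM in control roots. PSAL, PSAK and PSAD2 likewise had every Fe-deficient library below every control library. PSAH2 had 9.5, 8.7 and 9.5 RPKM in Fe-deficient roots, against 12.7, 14.5 and 15.0 RPKM in control roots. PSAH2 shared 19.1% of its words with AT1G52240, a neighbour it overlaps. That neighbour averaged 6.67 RPKM in Fe-deficient and 8.3 RPKM in control roots (limma adjusted p = 0.354), and its part in the PSAH2 values was not tested. PSAH1, which was not called, shared 49.2% of its words with its overlapping neighbour AT3G16130. The member of the class that moved least was PSAP, at 9.9, 8.1 and 8.3 RPKM in Fe-deficient roots and 10.0, 10.6 and 10.4 RPKM in control roots (log2 fold change -0.23, limma adjusted p = 0.234).

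The root photosystem II subunits had a median log2 fold change of -0.53, with 7 of 11 called. PSBR had 29.1, 29.3 and 26.6 RPKM in Fe-deficient roots, against 54.1, 42.0 and 47.8 RPKM in control roots (log2 fold change -0.74, SE 0.0988, limma adjusted p = 0.00726). It was the only member called in all 6 fits that left out 1 library, and PSAF was called in 5 and LHCA3 in 4. The other 6 called were PSBQ2, PSBS, PSBO1, PSBP1, PSBX and PSBQ1, with log2 fold changes between -0.70 and -0.52 and adjusted p in limma between 0.0243 and 0.0406.

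PSBQ2 had 3.89, 4.19 and 4.83 RPKM in Fe-deficient roots, against 7.22, 6.36 and 8.46 RPKM in control roots. Its paralog PSBQ1 had 9.2, 10.9 and 8.4 RPKM in Fe-deficient roots, against 14.4, 14.2 and 12.8 RPKM in control roots. In both the highest Fe-deficient library lay below the lowest control library. PSBO1, which shields the water-oxidising site, had 27.2, 23.1 and 21.2 RPKM in Fe-deficient roots, against 32.6, 36.7 and 36.2 RPKM in control roots. PSBP1, its neighbour in that complex, had 20.4, 18.1 and 16.7 RPKM in Fe-deficient roots, against 24.8, 29.0 and 26.4 RPKM in control roots. PSBX, a small membrane-spanning subunit, had 25.0, 29.2 and 24.3 RPKM in Fe-deficient roots, against 37.6, 35.0 and 41.2 RPKM in control roots. PSBO1, PSBP1 and PSBX did not overlap between the groups either. PSBTN, called in rosettes, had 5.7, 7.3 and 3.6 RPKM in Fe-deficient roots and 5.8, 4.1 and 6.1 RPKM in control roots, and its log2 fold change of 0.02 (95% interval -0.59 to 0.63) was the only one above 0.

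The root antennae gave 3 calls. LHCA3 had 13.2, 11.6 and 11.4 RPKM in Fe-deficient roots, against 17.1, 19.0 and 17.5 RPKM in control roots (log2 fold change -0.55, limma adjusted p = 0.0125). LHCA4 had 25.0, 22.8 and 20.0 RPKM in Fe-deficient roots, against 30.7, 31.4 and 31.3 RPKM in control roots (log2 fold change -0.46, limma adjusted p = 0.0291). LHCB4.1, a gene for the minor antenna protein CP29, had 15.1, 11.3 and 11.2 RPKM in Fe-deficient roots, against 20.5, 19.0 and 19.1 RPKM in control roots (log2 fold change -0.64, limma adjusted p = 0.031). These 3 genes did not overlap between the groups. LHCB1.3, the highest member in roots too, had 73.3, 69.1 and 50.2 RPKM in Fe-deficient roots and 73.6, 70.4 and 68.0 RPKM in control roots, with overlap (log2 fold change -0.15, 95% interval -0.48 to 0.17). LHCB1.2 had the lowest log2 fold change of any member in roots, -0.76, but at 1.13 to 2.08 RPKM in Fe-deficient roots and 2.34 to 3.52 RPKM in control roots it did not pass (limma adjusted p = 0.115).

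In roots the sums of both photosystems and both antennae were each lower in all 3 Fe-deficient libraries. The photosystem I sum was 115.2, 108.8 and 101.8 RPKM in Fe-deficient roots, against 157.3, 164.0 and 158.5 RPKM in control roots, and the photosystem II sum 147.2, 146.6 and 125.9 RPKM in Fe-deficient roots, against 207.0, 199.3 and 216.6 RPKM in control roots. The ratio of means, Fe-deficient over control, was 0.679 for photosystem I, 0.674 for photosystem II, 0.732 for LHCA and 0.794 for LHCB. The ratio of photosystem I to photosystem II sums overlapped between the groups, at 0.783, 0.742 and 0.808 in Fe-deficient roots and 0.76, 0.823 and 0.732 in control roots. The ratio of LHCB to photosystem II sums was 1.24, 1.12 and 1.05 in Fe-deficient roots, just above 1.04, 1.03 and 0.85 in control roots. Much of the LHCB sum was LHCB1.3, on average 64.2 of 159.7 RPKM in Fe-deficient roots and 70.6 of 201.1 RPKM in control roots. The ratio of LHCA to photosystem I sums was 0.54, 0.503 and 0.498 in Fe-deficient roots, also just above 0.462, 0.476 and 0.494 in control roots. Of the carbon fixation genes, also transcripts of green tissue, 2 of the 7 tested in roots were called lower, RCA with a log2 fold change of -0.82 (limma adjusted p = 0.0133) and RBCS1A with -0.41 (limma adjusted p = 0.0326), and all 7 were below 0. Over all genes tested in roots 2.35% were called lower and 54.4% were below 0. In rosettes none of the 9 carbon fixation genes was called and 1 was below 0, with a median log2 fold change of 0.0452. The 9 carbon fixation genes summed to 79.0 to 82.8 RPKM in Fe-deficient roots, against 97.4 to 121 RPKM in control roots. The 9 shoot tissue markers summed to 2.07 to 2.3 RPKM in Fe-deficient roots, against 2.42 to 2.83 RPKM in control roots, with TGG2, KAT1, GL1, YAB1, YAB3 and YAB5 never reaching 0.1 RPKM. TGG1, the only marker tested there, averaged 1.02 RPKM in Fe-deficient and 1.01 RPKM in control roots (log2 fold change 0.01, limma adjusted p = 0.984). CER1 (0.43 RPKM in Fe-deficient and 0.66 RPKM in control roots) and MYB60 (0.41 and 0.56 RPKM) were under the filter. The part of green tissue or of shoot material in the root result was not tested.

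The response of 5 of the 41 members tested in both organs differed between them, where 3.48% of 17680 genes did. The difference is the log2 fold change in rosettes minus that in roots, by a test that called more false differences on simulated data than its threshold allows. PSBR (AT1G79040) had 0.20 in rosettes and -0.74 in roots, a difference of 0.94 (SE 0.129, limma-based adjusted p = 0.000861). PSBS (AT1G44575) had 0.31 in rosettes and -0.61 in roots, a difference of 0.93 (SE 0.146, limma-based adjusted p = 0.00431), and its root levels were 4.32, 5.62 and 4.77 RPKM in Fe-deficient roots against 7.17, 7.43 and 8.63 RPKM in control roots. PSBO1 and LHCA4, near 0 in rosettes, differed by 0.53 (limma-based adjusted p = 0.0337) and 0.50 (limma-based adjusted p = 0.0243). Both hold tied values in the rosette libraries, which narrows their spread.

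PSAN differed in the other direction, with -1.53 in rosettes and -0.65 in roots, a difference of -0.88 (SE 0.182, limma-based adjusted p = 0.0168). PSAF and PSAD2 had differences of -0.34 each, and neither passed (limma-based adjusted p = 0.172 and 0.348). PSBTN had a difference of -0.69, which did not pass either (limma-based adjusted p = 0.246). With the smaller of the organs' degrees of freedom, a stricter setting added after the data were seen, only PSBR was called. RNA quality differed between the organs, since the labels give RNA integrity numbers of 8.3 to 8.7 for rosettes and 9.8 to 10 for roots, and the part of this in the differences was not tested.

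**Figure D4:**
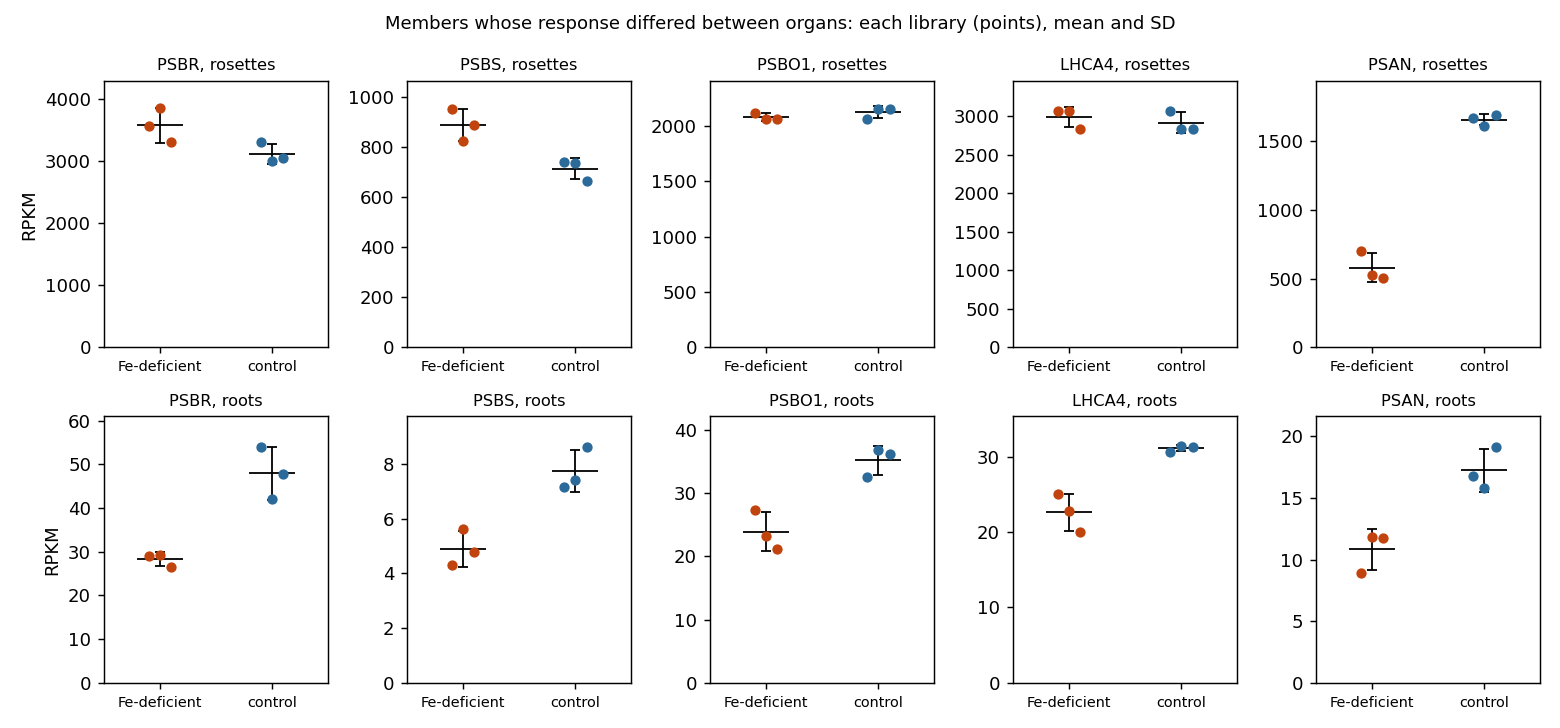
RPKM of the 5 members whose response differed between the organs, in rosettes (top row) and roots (bottom row), with Fe-deficient left of control. Points are libraries, and lines and bars give the mean and SD of 3; PSBR and PSBS averaged 3570 and 887.5 RPKM in Fe-deficient rosettes and 3114 and 713.6 RPKM in control rosettes, but 28.3 and 4.90 RPKM in Fe-deficient roots and 48.0 and 7.74 RPKM in control roots.

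Of 46 further genes of the same machinery, 7 were called lower in rosettes and none higher, where 1.28% of all tested genes were called lower and 0.679% higher. Leaving out 1 library at a time left 4 to 5 called, and FED A, PETM, SIG1 and CPSRP54 were called in all 6 such fits, ATPD in 1 and PSA3 and GNC in none. Among 10 electron carriers and ATP synthase subunits, FED A, the main leaf ferredoxin that takes electrons from photosystem I, had 587.0, 521.5 and 621.2 RPKM in Fe-deficient rosettes, against 1731.4, 1720.1 and 1697.7 RPKM in control rosettes (log2 fold change -1.58, limma adjusted p = 0.000226). PETM, a small subunit of the cytochrome b6f complex, had 307.9, 322.0 and 295.3 RPKM in Fe-deficient rosettes, against 898.9, 943.6 and 887.8 RPKM in control rosettes (log2 fold change -1.56, limma adjusted p = 4.62e-05). PETC, of the same complex as PETM, was not called. ATPD, the delta subunit of ATP synthase, was called with a log2 fold change of -0.41.

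Among 13 factors for assembly and antenna insertion, CPSRP54, a subunit of the particle that carries antenna proteins to the thylakoid, had a log2 fold change of -0.47 (limma adjusted p = 0.00161) and PSA3, a photosystem I assembly factor, -0.30 (limma adjusted p = 0.0311). Among 9 transcriptional regulators, SIG1, a sigma factor of the plastid RNA polymerase, had 32.7, 23.2 and 28.4 RPKM in Fe-deficient rosettes, against 80.4, 78.4 and 67.7 RPKM in control rosettes (log2 fold change -1.42, limma adjusted p = 0.00554). GNC, a GATA factor of greening, had -0.48 (limma adjusted p = 0.0223), whereas its relative CGA1 had 1.201 and missed the threshold (limma adjusted p = 0.0599). None of 14 genes of antenna regulation and photoprotection was called in rosettes, where the highest was PGRL1A, a component of cyclic electron flow, at 0.63 (limma adjusted p = 0.121).

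In roots 9 of the 43 tested genes of these lists were called lower and none higher, where 2.35% of all tested genes were called lower and 3.52% higher. These calls were fragile too, with 2 to 5 called when 1 library was left out. Without control roots replicate 2 or Fe-deficient roots replicate 2 there were 2, and in all 6 such fits SIG1 and ATPC1 were called, against none for GLK2, ELIP2 and LIL3:2. SIG1 and PETM were called in both organs, with root log2 fold changes of -0.63 (limma adjusted p = 0.00754) and -0.52 (limma adjusted p = 0.0215). The other 7 were ATPC1, LFNR1, PETE2, CPSRP43, LIL3:2, ELIP2 and GLK2. GLK2, an activator of nuclear photosynthesis genes, had 2.42, 3.57 and 3.19 RPKM in Fe-deficient roots, against 5.84, 4.99 and 5.84 RPKM in control roots (log2 fold change -0.78, limma adjusted p = 0.0328). In rosettes GLK2 overlapped between the groups, with a log2 fold change of 0.20 (limma adjusted p = 0.344). FED A, called in rosettes, had -0.38 in roots (limma adjusted p = 0.0656).

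The authors' deposited table gives its own p-value and log2 fold change per gene. In rosettes, by the authors' deposited table, 33 of the 45 members had a p under 0.05, of which 29 were lower and 4 higher, where 1.85% of the genes tested here had such a p and 1.0% were lower. The 4 higher in the authors' deposited table were LHCB1.2, LHCB1.5, PSBR and PSBS, with log2 fold changes of 0.20 for PSBR and 0.31 for PSBS. In roots the authors' deposited table had a p under 0.05 for 1 of the 45, PSBR (p = 0.02, log2 fold change -0.76), where 2.81% of the genes tested here had such a p and 1.3% were lower. The p-values of the authors' deposited table thus called more members in rosettes and fewer in roots than limma did on the same values. Limma had 4 in rosettes and 16 in roots at adjusted p under 0.05, and 20 and 30 at unadjusted p under 0.05. Whether the authors' p-value is adjusted is not known. With 38 members among the 100 highest genes in rosettes, all tested genes are not matched to the members in level.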

How the data were processed

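The authors deposited 1 table per organ with a value per gene and library. The header names no unit; the deposited values behave as RPKM whose distribution was equalised over the 6 libraries. The authors also deposited a p-value, called a Z-test per the file headers, and a log2 fold change per gene; whether that p-value is adjusted is not given in the sources used here. Per the submitters' processing notes, bcl2fastq 1.8.4, Trimmomatic 0.35, Bowtie2 2.0.6, edgeR 3.12.1 and limma 3.26.9 were used with the TAIR10 build. Read counting, use of strand and the annotation are not given in the sources used here, so depth is unknown and no counting interval is given.

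From these values, log2(RPKM + 0.5) was compared in limma 3.58.1 (R 4.3.3; eBayes with trend) for genes averaging 1 RPKM or more in the organ, and p-values were adjusted over all of them. Organ differences used Satterthwaite degrees of freedom; on simulated data this test called more false differences than its threshold allows. Paralog ratios used exact permutation tests. Alternatives covered the pseudocount, filter, centring, variance model, weights, a joint fit, a replicate block and leaving out each library. The members and lists were drawn up from known gene function, but with earlier results of these data known, so their counts are set beside those of all genes as a description. All members could be named; further pathway genes were named if called or at the end of their list. Sequences and loci are from RefSeq (TAIR10.1).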

Additional observations from a re-analysis of the deposited data

Results flagged for a closer look

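The responses of 5 members differed between the organs by a test of the difference itself. The difference in log2 fold change, rosettes minus roots, was 0.94 for PSBR, 0.93 for PSBS, 0.53 for PSBO1, 0.50 for LHCA4 and -0.88 for PSAN. PSBR kept its call in all 23 alternative settings and PSBS in 22, against 16 for PSAN, 15 for LHCA4 and 14 for PSBO1. PSBR, PSBS and LHCA4 had log2 fold changes above 0 in rosettes and below 0 in roots, while PSAN and PSBO1 were below 0 in both. Of the 5, only PSAN was called in rosettes. The 95% intervals of PSBR, LHCA4 and PSBO1 in rosettes included 0, so their signs there are not established.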

How the results depend on the processing

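The 4 calls in rosettes stayed at 4 to 5 when each library was left out in turn, and PSAN, PSAF and PSAD2 were called in all 16 alternatives. The root count of 16 fell to 1 with no filter on low values and to 1 to 7 when a library was left out. The organ difference count of 5 became 2 with no filter, 8 with one fit of all 12 libraries, 1 with the smaller degrees of freedom (added after seeing the data) and 2 to 8 when a library was left out. The cause was not tested. With a library left out, the rosette median log2 fold change ranged from -0.29 to -0.16 for photosystem I, from -0.19 to -0.017 for LHCA, from -0.29 to -0.13 for LHCB and from -0.19 to -0.06 for photosystem II. Calls among the further pathway genes were 4 to 5 in rosettes, against 7, and 2 to 5 in roots, against 9 (added after seeing the data). Ratios that changed sign with a library left out were PSAE1 to PSAE2 (-0.098 to 0.068 in rosettes, -0.29 to 0.083 in roots), PSAH1 to PSAH2 (-0.019 to 0.074 in rosettes, -0.01 to 0.253 in roots) and PSBO1 to PSBO2 in roots (-0.195 to 0.165, and 0.012 with a pseudocount of 0.1). Same-numbered replicates did not deviate together (r from -0.16 to 0.247 in rosettes and -0.00334 to 0.103 in roots), so the number was not taken as pairing; with the replicate block 4 members were called in rosettes, 11 in roots and 5 for the organ difference. Over all genes, leaving out a library gave 167 to 330 calls in rosettes, against 372, and 523 to 971 in roots, against 1170. Equalised values and 3 libraries per group limit the precision, and depth is unknown.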
